A study of Zea mays with 6 samples.

Results

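Husk tissue carried 1060 DNase I hypersensitive sites (DHSs) that overlapped no DHS of V2-stage inner stem tissue (V2-IST) although a V2-IST DHS lay within 5 kb. These were selected from the 2 deposited DHS lists: a husk DHS was called husk-only when not even 1 bp of it overlapped a V2-IST DHS, and close when the gap between its edge and the edge of the nearest V2-IST DHS was at most 5000 bp. Of 15261 husk DHSs, 3108 were husk-only (20.4%), and the 1060 close ones made up 6.95% of the husk list and 34.1% of the husk-only DHSs (Wilson interval, 95%, 32.5% to 35.8%). The other 2048 husk-only DHSs are called distant below. The remaining 12153 husk DHSs overlapped a V2-IST DHS and are called shared.

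Both tissues came from the maize inbred line B73, grown with 16 h of light per day. V2-IST was the inner stem of V2 seedlings and gave 2 libraries from 2 biological replicates, whereas husk was the soft inner layer of the leaves around the ear, taken as the silks emerged (2 to 5 cm per the labels), and gave 3 libraries from 2 biological replicates. Naked B73 DNA treated with DNase I served as the control in 1 library. The stem and husk samples hold mixed cell types, so a site open in few cells and a site weakly open in many cannot be told apart.

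DNase-seq reads out where nucleosomes leave DNA open to the nuclease. Open sites are found at promoters, just upstream of transcription start sites, and at enhancers and other regulatory sequence away from genes, where transcription factors bind in place of nucleosomes. A gene can be served by several such sites, of which some are open in many tissues and others in few. A site that opens in 1 tissue beside a site that is open in another is therefore a place where neighbouring regulatory sequence can be compared between tissues. The genes at the positions given here were not analysed here.

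Each tissue was represented by 1 list in which the authors had integrated the replicates, and a DHS is given by its coordinates alone. The lists hold no signal, so no value has an SD and no difference below was tested: DHSs of 1 list are not replicates of a tissue. Wilson intervals for shares and binomial intervals from order statistics for medians (both 95%) cover counting error only and treat DHSs as independent, which neighbours are not. The term husk-only means absence from the integrated V2-IST list and not closed chromatin. A peak found in a single V2-IST replicate would not have been kept. The same holds for peaks of both replicates that overlapped by less than 70%. Sequencing depth was not used here.

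The gap to the nearest V2-IST DHS, which the selection used and which is given as a description, had a median of 1806 bp among close husk-only DHSs (1666 to 1947 bp), with the middle 50% from 945.75 to 3084.5 bp. Gaps up to 500 bp were scarce, with 21 DHSs. The next 500 bp held 268, the most of any 500-bp class, followed by 170, 114 and 112 in the classes up to 1500, 2000 and 2500 bp. Beyond that the numbers declined to 56 and 61 in the last classes inside the limit, and 64 and 46 husk-only DHSs lay in the first classes outside it. The limit of 5000 bp thus fell on a gradual slope and not at a break.

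**Figure D1:**
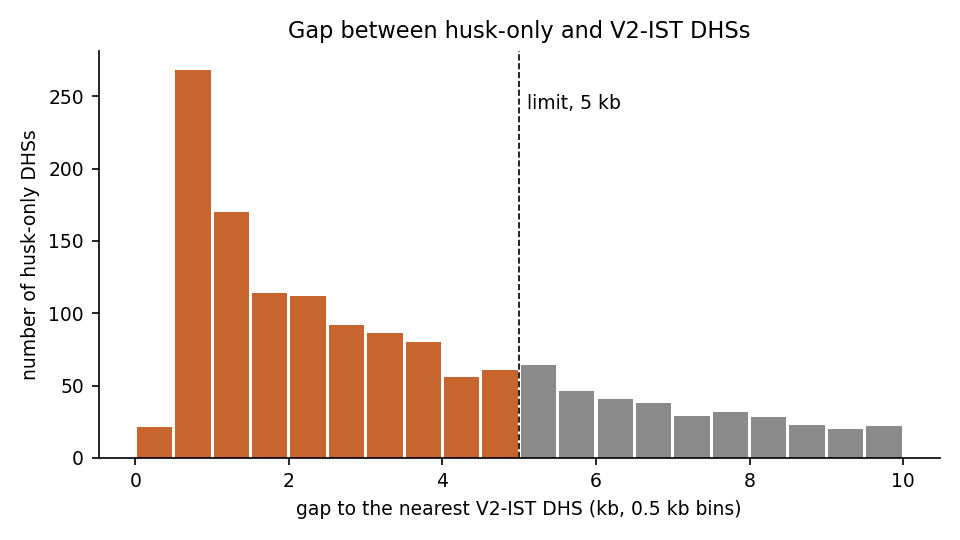
Number of husk-only DHSs (y axis) by the gap in kb to the nearest V2-IST DHS (x axis, classes of 500 bp), with the close DHSs in orange and the distant ones up to 10 kb in grey. The class from 500 to 1000 bp holds 268 DHSs, the class below it 21, and the numbers pass the dashed 5 kb limit without a break (61 before it and 64 after it).

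The same shape was present for shared husk DHSs when their gap to the nearest other V2-IST DHS was measured. Such a second V2-IST DHS lay within 5 kb for 5158 of the 12153 shared husk DHSs (42.4%), and their median gap was 1623.5 bp (1577 to 1675 bp). In the class from 500 to 1000 bp lay 27.2% of them, against 25.3% of the close husk-only DHSs, and up to 500 bp lay 1.40% against 1.98%. The scarcity of gaps up to 500 bp was therefore a property of both sets of DHSs.

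Positions are given 1-based on the AGPv4 assembly. The smallest gap was found on chromosome 3, where a husk-only DHS of 423 bp (202341216 to 202341638) began 21 bp after the end of a V2-IST-only DHS of 1183 bp (202340012 to 202341194). At this place the 2 tissues had adjoining DHSs that did not share a base. On chromosome 5, a husk-only DHS of 327 bp (203231703 to 203232029) lay 52 bp from a V2-IST DHS of 864 bp (203230787 to 203231650). That V2-IST DHS overlapped a husk DHS of 518 bp (203230652 to 203231169), so the V2-IST DHS filled most of the 533 bp between 2 husk DHSs. On chromosome 1, the gap was 77 bp between a husk-only DHS of 504 bp (227507267 to 227507770) and a V2-IST-only DHS of 723 bp (227506467 to 227507189).

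At the other end of the range, the last DHSs inside the limit had gaps of 4996 bp (chromosome 5, 1723893 to 1724113), 4988 bp (chromosome 3, 25358204 to 25358549) and 4982 bp (chromosome 2, 49476328 to 49476864). The first ones outside it had gaps of 5003 bp (chromosome 9, 84232835 to 84233111), 5008 bp (chromosome 5, 79557237 to 79557742) and 5013 bp (chromosome 5, 3875211 to 3875639). Widths were 221 to 537 bp for the former and 277 to 506 bp for the latter.

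To learn what the close husk-only DHSs lay beside, the nearest V2-IST DHS was classed by whether it overlapped a husk DHS. For 750 of 1060 (70.8%, Wilson interval 67.9% to 73.4%) it did, so in these cases husk had an additional DHS next to a site open in both tissues. For the other 310 (29.2%, 26.6% to 32.1%) the nearest V2-IST DHS was V2-IST-only, and each tissue had a DHS of its own. Against this stood 65.4% of all V2-IST DHSs that overlapped a husk DHS. Among the shared husk DHSs with a second V2-IST DHS within 5 kb, that second DHS overlapped a husk DHS in 67.8% (66.5% to 69.1%), and the intervals overlapped. The share exceeded that of all V2-IST DHSs on 8 of 10 chromosomes and fell short of it on chromosomes 7 (63.8% against 65.9%) and 8 (64.2% against 64.4%). Seen from V2-IST, 2087 of 6403 V2-IST-only DHSs lay within 5 kb of a husk DHS (32.6%), and the nearest husk DHS was shared for 83.8% of them (82.2% to 85.3%). The base was also higher there, since 12153 of all 15261 husk DHSs were shared and only 20.4% were husk-only. The 83.8% is therefore not to be read against the 70.8% or the 65.4%.

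The class of the neighbour fixed most of what else was near in husk. Among the 750 DHSs beside a shared DHS, 744 had another husk DHS within 5 kb. This was nearly given by the selection, since a husk DHS lay at the neighbour itself. Among the 310 beside a V2-IST-only DHS, 82 had another husk DHS within 5 kb (26.5%, Wilson interval 21.9% to 31.6%). For distant husk-only DHSs it was 220 of 2048 (10.7%, 9.47% to 12.2%) and for shared husk DHSs 4698 of 12153 (38.7%, 37.8% to 39.5%). The selection also limited the share of the distant ones, since no V2-IST DHS, and so hardly any shared husk DHS, lay within 5 kb. With another husk DHS near 82 of the 310, most close husk-only DHSs beside a V2-IST-only DHS were the only husk DHS within 5 kb.

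In 278 of these 310 cases the husk-only and the V2-IST-only DHS were nearest to each other, with a median gap of 1588 bp. For 214 of the 278 pairs (77.0%, Wilson interval 71.7% to 81.5%) no shared DHS lay within 5 kb of either DHS. The choice of pairs bears on this share, since each partner was the nearest DHS of the other tissue and neither was shared. Isolation was also common in the lists. By an unlike measure, 4316 of all 6403 V2-IST-only DHSs had no husk DHS of any class within 5 kb. The 77.0% is therefore not read as a trait of these pairs. These 214 pairs are places where both tissues had a DHS in the same stretch, but at different positions and with no common site nearby. Their median gap was 1950.5 bp, and 49 pairs lay within 1 kb. The DHSs of the 2 tissues were of similar width, with medians of 388.5 bp in husk and 408.5 bp in V2-IST, and the husk DHS was the wider in 100 of 214 pairs (46.7%, 40.2% to 53.4%). The V2-IST DHS lay on the side of lower coordinates in 115 pairs.

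Few close husk-only DHSs lay near each other, but 826 of 1060 (77.9%) had another husk DHS of any class within 5 kb. For shared husk DHSs that share was 38.7%. The selection bears on both, since close husk-only DHSs made up 6.95% of the husk list and most lay beside a shared DHS. The 1060 DHSs had 1000 different nearest V2-IST DHSs, of which 942 were nearest to 1 of them, 56 to 2 and 2 to 3. Of the 58 V2-IST DHSs with several, 18 had them on both sides. Another close husk-only DHS lay within 5 kb for 123 of 1060 (11.6%, Wilson interval 9.81% to 13.7%), in 57 groups of 2 and 3 groups of 3. A V2-IST DHS within 5 kb on each side was found for 164 (15.5%, 13.4% to 17.8%). Of the shared husk DHSs with a second V2-IST DHS within 5 kb, 18.0% had V2-IST DHSs on both sides (16.9% to 19.0%). In 78 of the 164 cases both flanking V2-IST DHSs were shared, in 70 cases 1 of them, and in 16 cases neither. The nearest V2-IST DHS was on the side of lower coordinates in 551 cases (52.0%, 49.0% to 55.0%), so neither side was preferred beyond counting error.

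At 3 places a single V2-IST DHS had 3 husk-only DHSs within 5 kb. On chromosome 5, a V2-IST DHS of 296 bp (7188811 to 7189106), which overlapped a husk DHS of 338 bp (7188787 to 7189124), was followed by husk-only DHSs of 391 bp (7190519 to 7190909), 803 bp (7191647 to 7192449) and 482 bp (7193033 to 7193514). The stretch of 2996 bp that they spanned held no V2-IST DHS. On chromosome 8, a V2-IST DHS of 189 bp (156543107 to 156543295), within a husk DHS of 379 bp (156543024 to 156543402), had husk-only DHSs of 614 bp (156538646 to 156539259) and 750 bp (156540389 to 156541138) on the side of lower coordinates and of 292 bp (156545083 to 156545374) on the other. On chromosome 9, a V2-IST DHS of 1007 bp (114611228 to 114612234) had them at 114607748 to 114608141 (394 bp), 114612975 to 114613187 (213 bp) and 114614755 to 114615301 (547 bp). The V2-IST DHS was shared at all 3 places, and the husk DHS was the wider of the pair on chromosomes 5 and 8 but not on chromosome 9 (745 bp, 114611271 to 114612015).

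**Figure D2:**
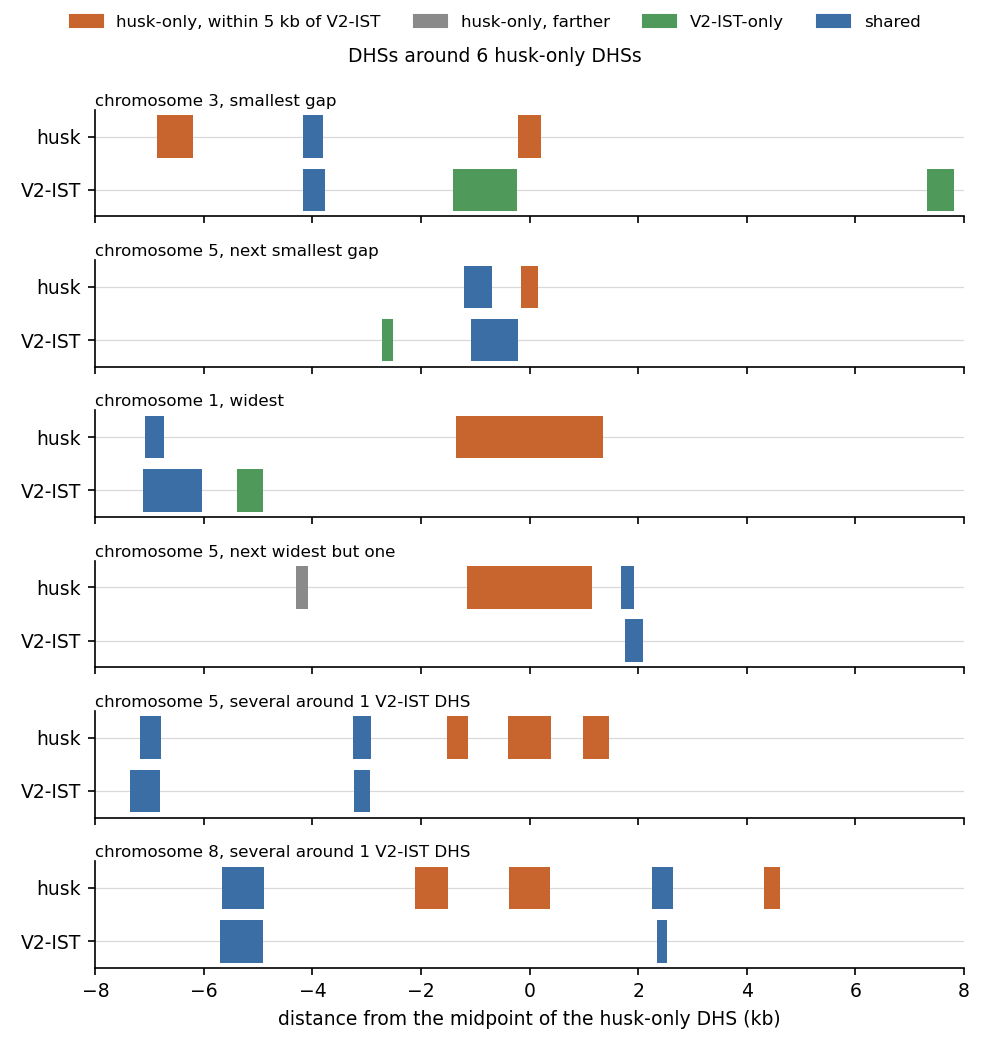
DHSs of husk (upper row of each panel) and V2-IST (lower row) around 6 close husk-only DHSs, drawn to scale as boxes against the distance in kb from the midpoint of the husk-only DHS. The upper panels show gaps of 21 and 52 bp, the middle panels husk-only DHSs of 2695 and 2314 bp, and the lower panels 3 husk-only DHSs near 1 shared DHS.

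Next, widths were compared. Close husk-only DHSs had a median width of 412 bp (397 to 431 bp), with the middle 50% from 290 to 658.5 bp and a range of 132 to 2695 bp. Distant husk-only DHSs were narrower, with a median of 366 bp (355 to 375 bp), and shared husk DHSs wider, with 478 bp (470 to 485 bp). Each of these directions held on 9 of 10 chromosomes, with chromosome 8 as the exception for distant (363 against 395 bp) and chromosome 4 for shared DHSs (431 against 426.5 bp). Widths of at least 1000 bp were found for 109 close husk-only DHSs (10.3%, Wilson interval 8.60% to 12.3%), against 5.47% of the distant (4.56% to 6.54%) and 18.5% of the shared DHSs (17.8% to 19.2%). Under 300 bp lay 26.8%, 35.2% and 21.5%, respectively. When a husk DHS counted as shared only if its midpoint lay inside a V2-IST DHS, the order turned and the close husk-only DHSs were 138 bp wider than the shared ones by median. That rule also counts husk DHSs with a partial overlap as husk-only.

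Crowding moved with width as well. Shared husk DHSs with a second V2-IST DHS within 5 kb had a median of 568 bp (552 to 584 bp), and those without 429 bp (423 to 436 bp). Against the former, which had the same kind of surroundings, close husk-only DHSs were narrower by a larger margin. Distant husk-only DHSs with another husk DHS within 5 kb had a median of 454 bp (421 to 526 bp, n = 220), which lay above that of the close ones with such a neighbour, 422 bp (398 to 441 bp, n = 826). Without a husk neighbour the medians were 357 bp (347 to 368 bp) for distant and 396 bp (355 to 424 bp, n = 234) for close DHSs. In both comparisons the intervals overlapped, so neither gave a clear order. The husk neighbours were also unlike in kind, since the selection left no V2-IST DHS within 5 kb of a distant DHS. Without regard to husk neighbours, close husk-only DHSs had a larger median than distant ones in the outermost parts of chromosomes (406 against 379.5 bp, first and last of 10 bins of equal length). They also had it in the bins between them (417 against 358 bp).

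**Figure D3:**
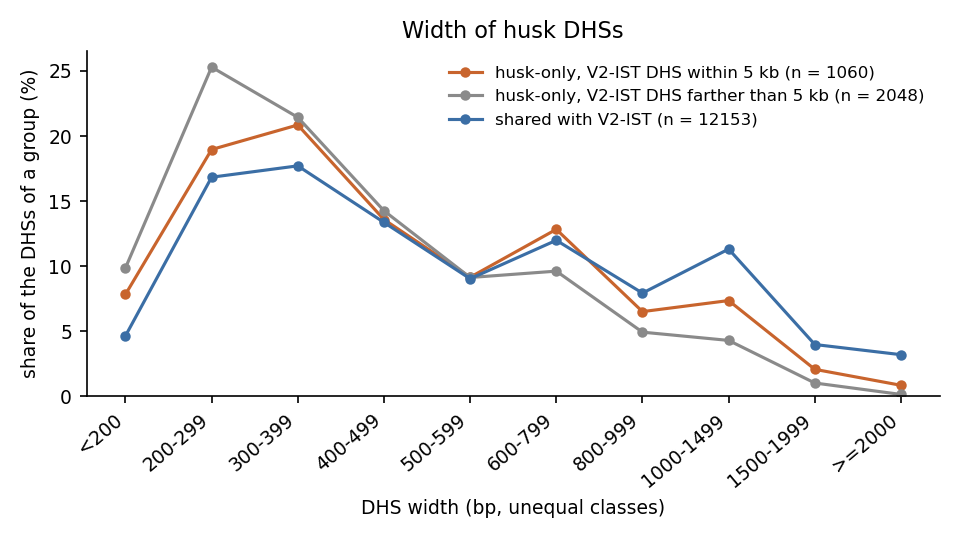
Share of the DHSs of a group (y axis, %) in classes of DHS width (x axis, bp, classes of unequal size) for close husk-only, distant husk-only and shared husk DHSs. The close husk-only DHSs (median 412 bp) lie between the distant (366 bp) and the shared ones (478 bp), with 10.3% of at least 1000 bp.

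Chromosome 1 held the widest close husk-only DHS, of 2695 bp (292176594 to 292179288), followed by DHSs of 2541 bp on chromosome 6 (166298397 to 166300937) and 2314 bp on chromosome 5 (197268484 to 197270797). The first was 3567 bp from a V2-IST-only DHS of 474 bp (292172553 to 292173026), and the second 2813 bp from one of 308 bp (166295276 to 166295583). The third was 593 bp from a V2-IST DHS of 336 bp (197271391 to 197271726), whose husk counterpart measured 244 bp (197271318 to 197271561). In each of these cases, chosen for the width of the husk-only DHS, it was several times as wide as the V2-IST DHS beside it.

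Over all close husk-only DHSs the opposite was more common, and 429 of 1060 (40.5%, Wilson interval 37.6% to 43.5%) were wider than the nearest V2-IST DHS. V2-IST DHSs were more often the wider over the lists too. Where 1 V2-IST and 1 husk DHS overlapped each other alone, the husk DHS was wider in 4413 of 11584 pairs. The 40.5% is therefore not read as a trait of close husk-only DHSs. Their direction depended on the overlap rule, since 58.4% were wider under the midpoint rule. The share fell to 23.4% with the V2-IST list limited to its 15000 widest DHSs. The class of the neighbour separated these. Beside a shared DHS, 275 of 750 were the wider (36.7%, 33.3% to 40.2%), and beside a V2-IST-only DHS 154 of 310 (49.7%, 44.1% to 55.2%). The husk-only DHSs themselves hardly differed, with medians of 421 bp (396 to 443 bp) beside shared and 404 bp (380 to 427 bp) beside V2-IST-only DHSs. Their V2-IST neighbours did differ, with 556 bp (516 to 598 bp) for shared and 410 bp (368 to 464 bp) for V2-IST-only ones. Within husk, 452 of 720 were narrower than the husk DHS at the shared neighbour (62.8%, 59.2% to 66.2%, counted where 1 V2-IST and 1 husk DHS overlapped each other alone). Shared husk DHSs were the wider over the whole husk list too, with a median of 478 bp against 412 bp. A shared husk DHS could also be counted for several close husk-only DHSs.

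Width changed little with the gap. From the class up to 1000 bp to that from 4000 to 5000 bp, the median width was 406, 409, 448.5, 423 and 366 bp, with intervals that overlapped. The neighbouring V2-IST DHS was widest where it was closest, with a median of 604 bp for gaps up to 1000 bp (n = 289), 506 bp up to 2000 bp (n = 284) and 441 to 474.5 bp beyond. The share of shared neighbours lay between 66.9% and 72.3% in all 5 classes, with intervals that overlapped.

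The shared DHSs beside a close husk-only DHS were then examined for their own width in the 2 tissues. This was done in one-to-one pairs, in which each partner overlapped exactly 1 DHS of the other tissue. A pair counted as beside a close husk-only DHS when its V2-IST partner was the nearest V2-IST DHS of one. It counted as beside a V2-IST-only DHS when its husk partner was the nearest husk DHS, within 5 kb, of one. Pairs beside neither could still have a tissue-only DHS within 5 kb that was nearer to another DHS. The V2-IST partner was wider in 61.4% of all 11584 pairs. In the 675 pairs beside a close husk-only DHS it was wider in 344 (51.0%, Wilson interval 47.2% to 54.7%) and the husk DHS in 326, with a median difference of 3 bp (-8 to 16 bp, V2-IST minus husk). In the 3230 pairs that had another V2-IST DHS within 5 kb but lay beside neither a husk-only nor a V2-IST-only DHS, the V2-IST partner was wider in 60.6% (58.9% to 62.2%), with a median difference of 25 bp (19 to 30 bp). Beside a V2-IST-only DHS this rose to 65.1% of 1523 pairs (62.7% to 67.5%) and a median of 52 bp (42 to 63 bp). The share beside close husk-only DHSs minus that of the 3230 pairs was -9.59 percentage points. It was -5.18 points under the midpoint rule and -3.64 points with the 15000 widest V2-IST DHSs.

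The share beside close husk-only DHSs was below that of the 3230 pairs on 9 of 10 chromosomes, with chromosome 2 as the exception (58.4% against 57.2%). On chromosome 8 the shares were nearly equal (56.25% against 56.57%). The share was also below in each of 3 classes of mean pair width. The values were 50.5% against 61.8% under 400 bp, 50.2% against 57.4% from 400 to 800 bp, and 52.4% against 63.0% from 800 bp. In the middle class the intervals overlapped. The share beside close husk-only DHSs did not move with the gap, at 51.8% up to 1000 bp, 49.5% from 1000 to 2000 bp and 51.4% beyond 2000 bp. The selection bears on these widths, since a V2-IST DHS that reached as far as the husk-only DHS would have made that DHS shared. Its part in the difference was not tested. At the boundary that faces the husk-only DHS, V2-IST reached further than husk in 376 of 720 cases and husk further in 339, with a median of 2 bp (-1 to 8 bp). At the boundary on the other side V2-IST reached further in 351 and husk in 360, with a median of -0.5 bp (-4 to 4 bp). Comparing the sides within a pair, V2-IST reached relatively further on the facing side in 372 of 720 (51.7%, 48.0% to 55.3%).

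**Figure D4:**
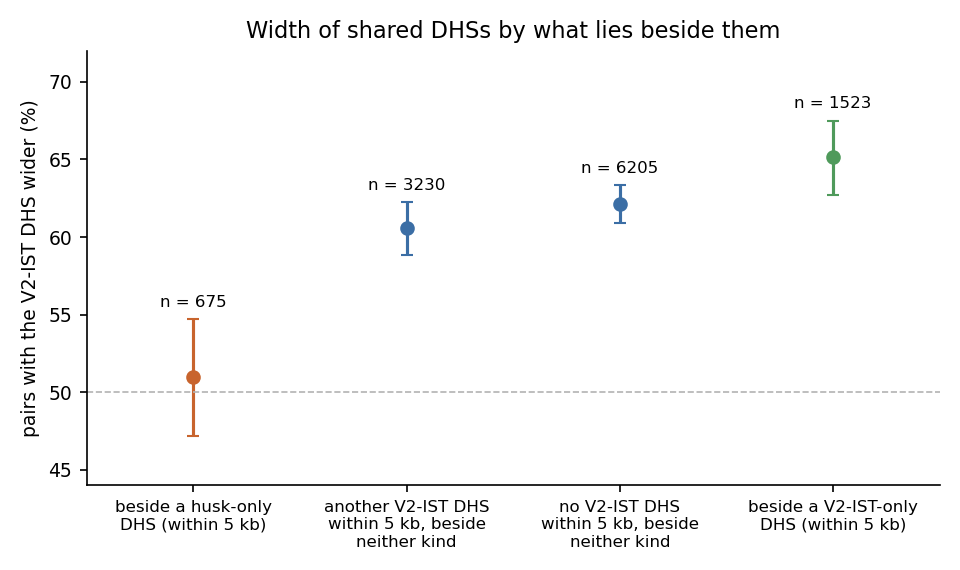
Share of one-to-one pairs of overlapping DHSs in which the V2-IST partner was wider (y axis, %, which starts at 44) by surroundings (x axis). Beside means that the pair held the nearest DHS of a tissue-only DHS within 5 kb, so pairs beside neither kind can have one within 5 kb. Bars are Wilson intervals (95%), and the dashed line marks equal numbers. Pairs beside a close husk-only DHS are at 51.0%, the pairs beside neither kind at 60.6% and 62.1%, and those beside a V2-IST-only DHS at 65.1%.

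Finally, the position along chromosomes was examined in 10 bins of equal length per chromosome. The first and the last bin held 392 of the 1060 close husk-only DHSs (37.0%, Wilson interval 34.1% to 39.9%), against 27.6% of the distant husk-only DHSs (25.7% to 29.6%) and 35.2% of the shared husk DHSs (34.3% to 36.0%). The direction against the distant ones held on 9 of 10 chromosomes, with chromosome 4 as the exception (27.2% against 28.5%). The selection bears on this direction, since V2-IST DHSs, whose nearness separates close from distant, were densest in these bins (13.8 and 17.9 per Mb). The central bins (5 and 6) held 74 of them (6.98%, 5.60% to 8.68%), against 11.7% of the distant (10.4% to 13.2%) and 10.8% of the shared DHSs (10.2% to 11.3%). Of the shared husk DHSs with a second V2-IST DHS within 5 kb, 41.5% lay in the outermost bins (40.1% to 42.8%), more than of the close husk-only DHSs, and 8.05% in the central bins (7.33% to 8.82%), where the intervals overlapped.

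The share of husk-only DHSs that were close to a V2-IST DHS is given beside the density of V2-IST DHSs, which enters the selection. It was highest in bin 10, at 42.7% (215 of 503), where V2-IST DHSs were also densest, at 17.9 per Mb. It was lowest in bin 6, at 22.9% (41 of 179) with 5.49 per Mb, although bins 3, 4 and 5 were less dense, at 5.08, 3.81 and 3.61 per Mb, with shares of 29.7%, 24.1% and 24.4%. By chromosome it was highest on chromosome 5 (39.0%, Wilson interval 34.0% to 44.2%), which was also densest in V2-IST DHSs at 10.1 per Mb. It was lowest on chromosome 4 (29.3%, 24.8% to 34.2%), which was the least dense at 7.23 per Mb. The intervals of all 10 chromosomes included the share of 34.1% over all chromosomes.

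Surroundings beyond the limit used for the selection differed less. Between 10 and 50 kb from the midpoint, close husk-only DHSs had a mean of 1.15 other husk DHSs and 1.35 V2-IST DHSs. For distant husk-only DHSs these were 0.907 and 0.984, and for shared husk DHSs 1.08 and 1.32. At least 1 husk DHS in this range was found for 56.6% of the close (Wilson interval 53.6% to 59.6%), 48.2% of the distant (46.1% to 50.4%) and 52.9% of the shared DHSs (52.0% to 53.8%). Together the close husk-only DHSs covered 563 kb, or 5.86% of the 9.61 Mb in husk DHSs.

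**Figure D5:**
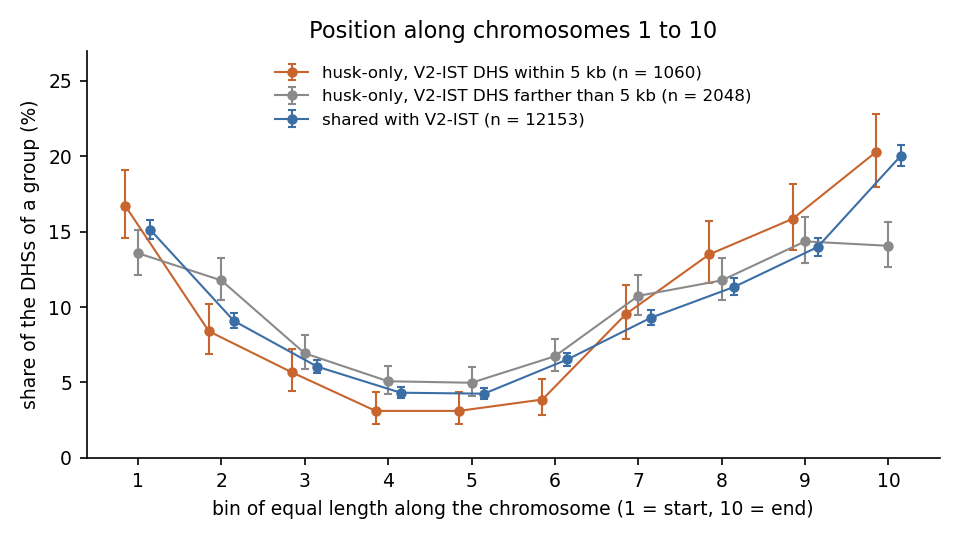
Share of the DHSs of a group (y axis, %) in each of 10 bins of equal length (x axis, from chromosome start to end, chromosomes 1 to 10 combined) for close husk-only, distant husk-only and shared husk DHSs, with Wilson intervals (95%) as bars. Close husk-only DHSs are at 16.7% and 20.3% in the outermost bins and at 3.11% and 3.87% in the central ones.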

How the data were processed

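Per the methods of the study, the authors aligned DNase-seq reads to B73 AGPv4 with BWA, kept reads with a mapping quality of at least 20 (SAMtools) and called MACS2 peaks per biological replicate at a q-value of 0.001 with naked DNA as control. Technical husk libraries were pooled, and peaks overlapping by at least 70% between replicates were kept. Versions were not given in the sources used here. GEO's labels name B73 RefGen_v3 as the build. The candidate regions that the study lists on AGPv4 all overlapped a DHS at the deposited coordinates, so AGPv4 was used. Starts were read as 0-based.

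Within a deposited list no DHSs overlapped, and chromosomes 1 to 10 were covered. Chromosome length was taken as the largest end coordinate. Shares were given Wilson intervals, and medians distribution-free binomial intervals. Members, comparisons and alternatives (overlap rule, gap limit and measure, width minimum, merging, list length) were chosen with earlier results of these data known. The regions named were the widest, the closest, those next to the limit and those sharing a V2-IST DHS. The widths within pairs, the pairs of tissue-only DHSs and the surroundings at 10 to 50 kb were added after the lists were seen. The code was tested on simulated lists. Genes, sequence and motifs were planned but not analysed here, because sequence and annotation of AGPv4 were not used here. Computation used pandas 2.3.3 and numpy 2.4.6 under Python 3.11.15, intervals used scipy 1.17.1, and plots used matplotlib 3.10.9.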

Additional observations from a re-analysis of the deposited data

How the results depend on the processing

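Of 113 values recomputed for 12 results, 75 stayed within the counting interval of the value reported (numbers within 1.5 times), 37 moved beyond it and 1 changed sign. The overlap rule and the gap limit define the selection, so most shifts follow by construction. With an overlap of 50% of both DHSs required, 3257 husk DHSs were selected with a median gap of 0 bp. They were 74 bp wider than distant husk-only DHSs and -41 bp against shared ones by median. The nearest V2-IST DHS was shared for 20.2%, 10.7% were flanked on both sides, 26.7% had another selected DHS within 5 kb and 32.7% were wider than their neighbour. With the midpoint rule, 1600 DHSs were selected with a median gap of 933.5 bp. The differences in median width were 233 bp against distant and 138 bp against shared DHSs, the latter with its sign reversed. The neighbour was shared for 44.9%, 15.7% had another within 5 kb and 58.4% were wider than the neighbour, which turned a minority into a majority.

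Gap limits of 1000, 2000 and 10000 bp selected 289, 573 and 1403 DHSs with median gaps of 720, 997 and 2550 bp, of which 26.99%, 21.8% and 11.7% were flanked on both sides. With 1000 and 2000 bp, 2.08% and 4.54% had another selected DHS within 5 kb, and 33.2% and 37.4% were wider than the neighbour. With 1000 bp, V2-IST reached relatively further on the facing side than on the other side of the pair in 56.5%. Distances between midpoints gave a median gap of 1636 bp. With DHSs of at least 300 bp, the median width was -127 bp against shared DHSs, 67.5% of neighbours were shared and 36.5% were wider than the neighbour. With the 15000 widest V2-IST DHSs these were -184 bp and 23.4% wider than the neighbour, with 12.9% flanked on both sides. When any V2-IST DHS within 5 kb was counted in place of the nearest, 76.4% had a shared one.

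The share of pairs with the wider DHS in V2-IST, beside close husk-only DHSs minus the other pairs with a V2-IST DHS near, was -9.59 percentage points. It was -5.18 with the midpoint rule and -3.64 with the 15000 widest V2-IST DHSs, a list that removes narrow V2-IST DHSs, and between -10.7 and -6.40 under the other alternatives. All alternatives for this value were chosen after seeing the data.

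No paired analysis was possible because the replicates of a tissue were merged into 1 list, which also left no replicate to omit. Stricter peak thresholds were not tried for want of peak scores, and the promoter alternative was not run without an annotation. Depth of the libraries was not used here and limits every comparison of the lists.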
